A study of Sus scrofa with 79 samples.

Results

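MHC class I antigen presentation was followed through 10 listed pig genes: the class I heavy chains SLA-1, SLA-2, SLA-3, SLA-6, SLA-7 and SLA-8, the light chain B2M, the peptide transporter subunit TAP1, and the immunoproteasome subunits PSMB8 and PSMB9. Members were taken as the genes whose RefSeq symbol belongs to the accession printed for a probe on the array. Of these 10, 8 were represented, by 22 of the 43603 probes and among 36787 genes in all. SLA-3 had 7 probes, SLA-8 had 4, PSMB8 had 3, B2M, TAP1 and PSMB9 had 2 each, and SLA-6 and SLA-7 had 1 each. No probe carried the symbols SLA-1 or SLA-2. RefSeq gives SLA-1 also as another name of SLA-5, which had 2 probes and was not on the list.

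Class I molecules show peptides from inside the cell to CD8 T cells. Proteins are cut into peptides by the proteasome, in which PSMB8 and PSMB9 replace constitutive catalytic subunits under interferon. The peptides are pumped into the endoplasmic reticulum by the transporter that TAP1 forms with TAP2, and are there bound by a heavy chain paired with B2M. In pigs SLA-1, SLA-2 and SLA-3 are the classical heavy chains, and SLA-6, SLA-7 and SLA-8 are non-classical. In RefSeq the heavy chains, TAP1, PSMB8 and PSMB9 lie on chromosome 7, where PSMB8, TAP1 and PSMB9 are neighbours, and B2M lies on chromosome 1. The heavy chain genes are close to each other in sequence, so that a probe of 1 of them may also bind transcripts of another, and RefSeq lists SLA-1 and SLA-7 as other names of SLA-3 and has a further B2M gene to which no probe was assigned.

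Gene expression was measured on 79 1-colour Agilent arrays, each with RNA of a pool of piglets from TOPIGS20 sows. The study describes pools of 4 piglets for day 8, while for days 55 and 176 the sample titles give pool numbers only. Piglets of T1 were left undisturbed, piglets of T2 were injected with the antibiotic tulathromycin at 2.5 mg/kg on day 4, and piglets of T3 were given the same injection and were also docked, clipped and weighed. Jejunum and ileum were sampled at days 8, 55 and 176 and blood at day 8, and 4 pools were analysed per tissue, age and treatment, except for 3 in T2 of ileum day 8, ileum day 55, jejunum day 55 and jejunum day 176 and in T3 of ileum day 176. Pools hide the spread between animals, and p-values measure the spread between pools.

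Depth on an array is given by the probes well above background, which were 34.9% to 44.1% of all probes in blood and 42.4% to 75.2% in the tissues, and the number of arrays limits the precision. Every group lay on 1 slide. In each gut tissue the ages lay on different slides, so that age and slide cannot be told apart, while T2 and T1 of jejunum and of ileum at day 55 shared a slide. At day 8 T2 and T1 shared a slide in ileum, and T3 and T2 did in jejunum and in blood. At day 176 T2 and T1 did in jejunum, and T3 and T2 in ileum. The remaining treatment of each set lay on another slide, so that in its comparisons treatment and slide cannot be told apart. Ileum and jejunum shared no slide at day 55, and blood shared none with the day 8 tissues, so that there tissue and slide cannot be told apart either. On 7 of the 79 arrays more than 3% of the bright probes lay more than 2 log2 units below the median of their tissue and age, with the largest share, 18.5%, in jejunum day 176 T2 pool 8. The 6 others were jejunum day 8 T2 pool 8, jejunum day 176 T3 pool 4, blood T1 pools 9, 10 and 11, and ileum day 8 T1 pool 11. Calls that change without these arrays are given with both values.

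The names of 4 sets of arrays need care. The authors' table of normalized values holds, under each sample, a column whose pattern over probes can be compared with the arrays, and 34 of its 79 columns match the array of their own name, those of blood and of day 176, and 1 matches no array. Another 44 columns match an array of the same treatment and pool but of another set, with correlations of at least 0.897: the jejunum day 8 columns match the arrays labelled jejunum day 55, the ileum day 8 columns the arrays labelled jejunum day 8, the jejunum day 55 columns the arrays labelled ileum day 55, and the ileum day 55 columns the arrays labelled ileum day 8. The labels of the array files are used throughout. On the arrays of day 176, where both sources give the same name, the level of the enterocyte fatty acid binding protein FABP2 was 12.16 to 14.19 in ileum and 15.74 to 16.59 in jejunum, on the log2 scale used throughout. The arrays labelled ileum day 55 had 13.12 to 14.4 and those labelled jejunum day 55 had 15.42 to 16.41, each within or next to the range of the tissue of their label. Both sources name the latter set jejunum, so that FABP2 bears on the tissue name of the arrays labelled ileum day 55 only. The age in the names was not checked by it. At day 8 FABP2 was 15.26 to 16.19 in ileum and 15.08 to 16.2 in jejunum and did not separate them. FABP6, the bile acid binding protein of the ileum, did not separate the tissues by their labels at any age, with medians of 17.79 in jejunum and 18.02 in ileum at day 55. The size of a treatment difference within a set is the same under either source, except with T2 of the arrays labelled jejunum day 8. Of these 12 arrays the authors' table matches 11 and lacks T2 pool 8. The tissue and age that a treatment difference is named for are not the same, and comparisons of ages and of tissues depend on the names.

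Levels are log2 signals after quantile normalization over all arrays, averaged over the probes of a gene, and are compared only within a gene. The probes of the members other than SLA-7 were well above background on every array with a value, and none was saturated. The SLA-7 probe was well above background on 71 of the 79 arrays. In the plot of members by group PSMB8 stood lowest in the day 8 tissues, and PSMB9 and TAP1 stood lowest in the day 8 tissues and in blood. The heavy chains SLA-6 and SLA-7 stood highest in blood, and B2M stood lowest there. SLA-3 stood lowest in jejunum day 176 T2, whose mean of 14.25 holds the single pool at 11.52, with the blood groups next to it.

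**Figure D1:**
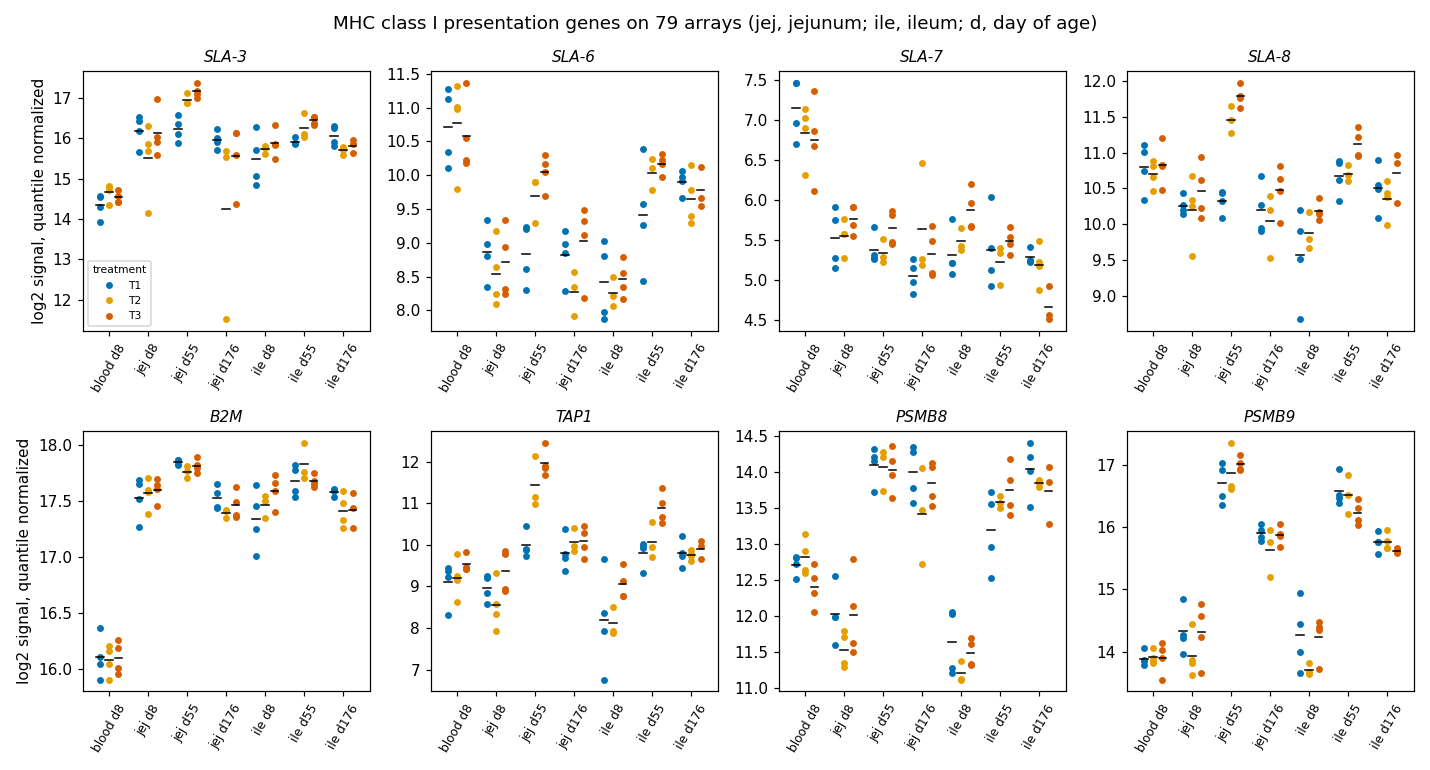
Levels (log2 signal, quantile normalized; vertical axis, different for each gene) of the 8 genes on 79 arrays by tissue, day of age and treatment (horizontal axis), with 1 point per pool and a line at the group mean. PSMB9 lies between 13.62 and 14.94 on all day 8 tissue arrays and between 15.2 and 17.36 on all later ones, and the low SLA-3 point of 11.52 is jejunum day 176 T2 pool 8.

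Most members differed between ages. A gene was called changed in limma when its adjusted p was below 0.05 and its fold change above 1.5. In jejunum 6 of the 8 genes were higher at day 55 than at day 8 and none was lower, where 17.6% of all 30716 genes tested were called higher, and the median difference of the 8 was 0.86 on the log2 scale, against 0.03 over all genes. In ileum 5 of the 8 were higher, against 23.4% of all genes, with a median of 1.23 against 0.1.

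The immunoproteasome subunits differed most. PSMB9 had levels of 13.62 to 14.85 in jejunum at day 8 (median 14.22, n = 12 pools) and of 16.36 to 17.36 at day 55 (median 16.93, n = 11). The lowest array of day 55 thus lay above the highest of day 8, and the difference was 2.68 ± 0.13 (log2 ± SE), a fold of 6.41 (limma, adjusted p = 3.57e-24). In ileum PSMB9 went from 13.64 to 14.94 at day 8 (median 14, n = 11) to 16.03 to 16.94 at day 55 (median 16.45, n = 11), also without overlap, a fold of 5.19 (limma, adjusted p = 1.21e-21). PSMB8 was 4.67-fold higher in jejunum, with 11.29 to 12.79 at day 8 and 13.64 to 14.36 at day 55, and 4.32-fold higher in ileum, with 11.12 to 12.05 and 12.53 to 14.18. Its arrays did not overlap in either tissue. All 3 PSMB8 probes and both PSMB9 probes were higher at day 55 in each tissue, by 1.85 to 2.39 and by 2.28 to 2.73.

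TAP1 was 4.5-fold higher in jejunum at day 55, a difference of 2.17 ± 0.2 (limma, adjusted p = 1.26e-13), with levels of 7.93 to 9.84 at day 8 and of 9.72 to 12.45 at day 55. The groups overlapped, and the T1 pools of day 55 lay near the highest pools of day 8. In ileum TAP1 was 3.51-fold higher, with levels of 6.76 to 9.66 and 9.31 to 11.37.

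Among the heavy chains SLA-6 and SLA-8 were higher in both tissues. SLA-6 differed by 0.82 ± 0.18 in jejunum and by 1.49 ± 0.18 in ileum, where the median went from 8.34 to 10.1. SLA-8 differed by 0.88 ± 0.14 in jejunum and by 0.96 ± 0.14 in ileum. The classical chain SLA-3 was higher in jejunum, by 0.84 ± 0.26 (limma, adjusted p = 0.00647; with the brightest of its probes alone 0.53, adjusted p = 0.286), while its difference in ileum, 0.51 ± 0.27, did not pass the threshold (adjusted p = 0.0989). With another background correction the SLA-3 difference in ileum was called (0.62, limma, adjusted p = 0.0478). In jejunum T1 the means at days 8 and 55 were 8.87 and 8.84 for SLA-6 and 10.26 and 10.32 for SLA-8. For SLA-3 they were 16.19 and 16.22. In the same order T2 had 8.54 and 9.69, 10.2 and 11.46, and 15.5 and 16.96. T3 had 8.71 and 10.05, 10.47 and 11.79, and 16.12 and 17.16. The jejunum differences of these genes were thus not seen in T1. In ileum the T1 means were 8.42 and 9.42 for SLA-6 and 9.57 and 10.67 for SLA-8. SLA-7 differed by -0.16 ± 0.13 in jejunum and by -0.2 ± 0.13 in ileum and was not called. With 75th percentile scaling SLA-7 was called lower in jejunum (-0.59, limma, adjusted p = 4.14e-05), and B2M was called higher there (0.62, adjusted p = 1.85e-06). After quantile normalization B2M was not called. B2M differed by 0.24 ± 0.07 and 0.26 ± 0.07, with adjusted p of 0.00439 and 0.00187, but its folds of 1.18 and 1.2 were below the threshold, although its jejunum arrays, 17.27 to 17.71 at day 8 and 17.71 to 17.89 at day 55, did not overlap before rounding.

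At day 176 PSMB8, PSMB9 and TAP1 were again above their day 8 levels, while no heavy chain was called higher in jejunum. In jejunum 3 genes were higher than at day 8, against 26.2% of all genes: PSMB8 4.37-fold, PSMB9 3.08-fold and TAP1 2.04-fold. SLA-6 differed by 0 ± 0.18 and SLA-8 by -0.07 ± 0.14, although the brightest SLA-8 probe alone was higher by 0.66 (limma, adjusted p = 5.33e-06). SLA-3 was lower, with a difference of -0.68 ± 0.26 (limma, adjusted p = 0.0227). This call was lost without the arrays that stand apart (-0.25, adjusted p = 0.133) and when arrays were scaled to their 75th percentile (-0.25, adjusted p = 0.363), and also without any 1 of jejunum day 8 T3 pool 3, day 8 T2 pool 7, day 176 T3 pool 4 or day 176 T2 pool 8 (-0.59 to -0.23).

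In ileum 5 genes were higher at day 176 than at day 8, against 25.5% of all genes. PSMB8 was 5.52-fold higher, PSMB9 3.14-fold, SLA-6 2.64-fold, TAP1 2.59-fold and SLA-8 1.57-fold. The value of SLA-8 was 0.65 ± 0.14 with all arrays and 0.55, below the fold threshold, without ileum day 8 T1 pool 11. SLA-6 had no overlap, with 7.87 to 9.03 at day 8 and 9.3 to 10.15 at day 176.

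Day 55 was the highest age for several members. In jejunum 5 genes were lower at day 176 than at day 55, against 16.5% of all genes. The difference was -1.52 ± 0.27 for SLA-3, -1.14 ± 0.2 for TAP1, -1.06 ± 0.14 for PSMB9, -0.95 ± 0.14 for SLA-8 and -0.82 ± 0.18 for SLA-6. In T1 alone the falls were small except for PSMB9. The T1 means at days 55 and 176 were 16.71 and 15.91 for PSMB9 and 16.22 and 15.97 for SLA-3. They were 9.99 and 9.8 for TAP1, 10.32 and 10.2 for SLA-8, and 8.84 and 8.83 for SLA-6. The SLA-3 value was -0.94 (adjusted p = 3.40e-07) without the arrays that stand apart, and SLA-8 was not called with its brightest probe alone (-0.27, limma, adjusted p = 0.0681). PSMB8 differed by -0.1 ± 0.16 (limma, adjusted p = 0.637). This fit leaves out a PSMB8 probe, which was at -0.75 here, and the probes kept were at 0.1 and -0.29. In ileum 1 of the 8 was lower, against 12.3% of all genes: PSMB9, at -0.73 ± 0.14 (limma, adjusted p = 2.30e-05). Its direction turned to 0.11 when arrays were scaled to their 75th percentile in place of quantile normalization. The probes of B2M disagreed. With its brightest probe alone B2M was called lower in ileum (-0.82, limma, adjusted p = 2.25e-10) and in jejunum (-0.74, adjusted p = 1.41e-09). Its other probe was at 0.31 and 0.05. With 75th percentile scaling B2M was called higher in ileum (0.84, limma, adjusted p = 2.06e-08).

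**Figure D2:**
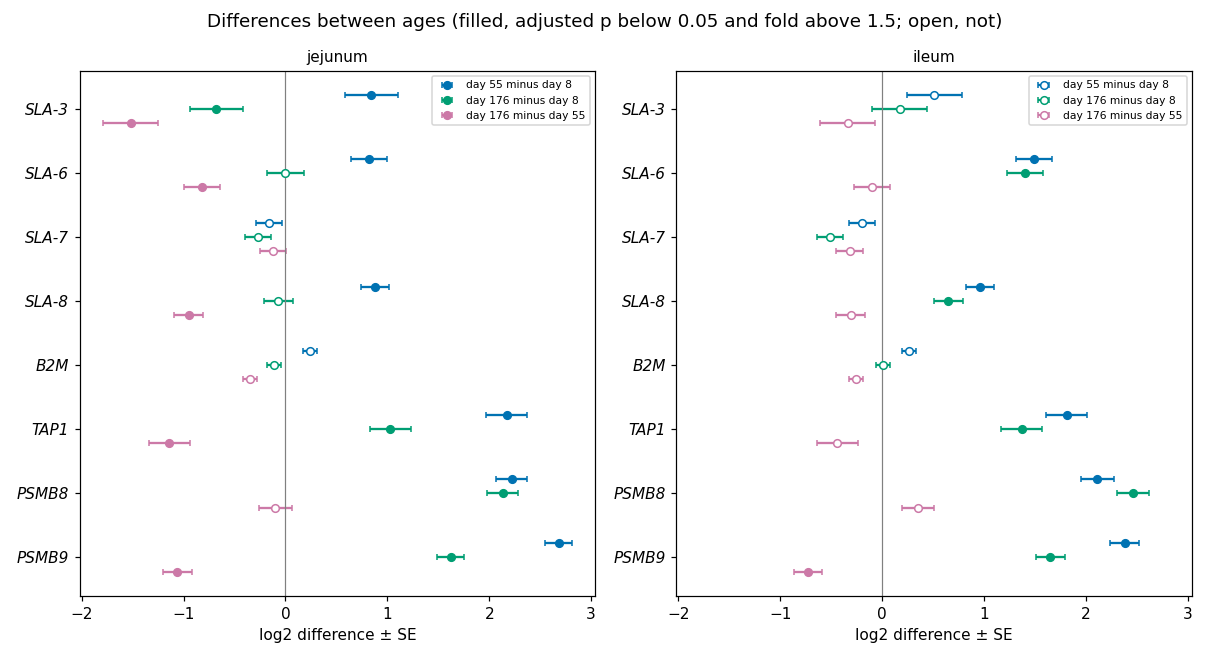
Differences between ages (log2, with SE; horizontal axis) for the 8 genes (vertical axis) in jejunum and ileum, filled where the gene was called. PSMB8, PSMB9 and TAP1 lie to the right of 0 at days 55 and 176 in both tissues, while SLA-3, SLA-6, SLA-8 and TAP1 in jejunum lie left of 0 for day 176 minus day 55.

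Under the names of the authors' table these age differences are other comparisons of the same arrays. The PSMB9 difference of jejunum day 55 minus day 8 is then -0.42 (limma, adjusted p = 0.00603), that of PSMB8 -0.51 and that of TAP1 -0.87, while PSMB9 in ileum differs by -0.07 at day 55 and by 1.65 between days 176 and 55. What does not depend on the names is that the 2 sets labelled jejunum and ileum day 8 were the lowest of all tissue sets for PSMB8 and PSMB9.

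Other genes of the pathway were described from lists. Of 19 regulators of class I genes listed, 9 were tested, and 7 were higher in jejunum at day 55 than at day 8 and none lower, with a median of 0.85. IFNG, the interferon that induces the immunoproteasome, was higher by 4.15 ± 0.27, the transcription factor IRF1 by 1.3 ± 0.12 and the interferon receptor kinase JAK2 by 1.11 ± 0.13. In ileum 4 of 9 were higher, among them IFNG by 3.1 ± 0.28, IRF1 by 0.79 ± 0.13 and STAT2 by 0.77 ± 0.1. In jejunum 3 of 9 were lower at day 176 than at day 55.

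Of the other immunoproteasome and PA28 genes 4 of 5 were tested, and 2 were higher in jejunum at day 55 than at day 8, the proteasome activator PSME2 by 1.28 ± 0.37 and the third immunoproteasome subunit PSMB10 by 1 ± 0.11. In ileum 0 of the 4 were called by limma and 1 had an unadjusted p below 0.05. Of 5 constitutive 20S proteasome genes tested, PSMA6, by 0.91 ± 0.1, and PSMA5, by 0.75 ± 0.11, were higher in jejunum and PSMA6 alone, by 0.83 ± 0.1, in ileum. Of 12 peptide loading genes listed 1 was tested over ages, the peptidase LNPEP, which was higher by 0.63 ± 0.15 in jejunum and by 2.01 ± 0.15 in ileum.

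Among class I-like molecules and class I receptors 5 of 12 were tested over ages. CD8A, the coreceptor of T cells that read class I, was higher at day 55 by 3.37 ± 0.17 in jejunum and 3.01 ± 0.18 in ileum, and KLRK1, an activating receptor of cytotoxic cells, by 2.8 ± 0.16 and 1.72 ± 0.17. ULBP1, a ligand of that receptor, was lower, with differences of -2 ± 0.19 and -2.94 ± 0.2. FCGRT, a class I-like receptor of antibodies, was lower too (-0.63 ± 0.13 and -0.72 ± 0.13). T cell markers moved with age as well. All 6 of 6 tested T cell markers were higher at day 55 than at day 8 in each tissue, with medians of 1.93 in jejunum and 2.37 in ileum, and the log2 of the summed signal of their probes was 11.27 to 12.6 in jejunum and 11.13 to 12.14 in ileum at day 8, and 13.42 to 14.32 and 13.88 to 14.74 at day 55. Markers of other cells moved with age on the same arrays. All 4 smooth muscle markers tested were lower at day 55 in ileum and 3 of 4 in jejunum, the intermediate filament DES by -2.16 ± 0.3 and -2.03 ± 0.3. Of 5 myeloid markers 3 were higher in ileum and 2 in jejunum, among them the scavenger receptor CD163 by 1.91 ± 0.27 and 1.34 ± 0.27. The B cell marker CD79A was higher in ileum by 5.81 ± 0.6. Of 8 epithelium markers 5 were lower in ileum, among them APOA4 (-2.53 ± 0.34) and FABP2 (-2.06 ± 0.18), while 2 were higher in jejunum. The part of these cells in the differences of the members was not tested, and in whole tissue fewer cells of a type and less RNA per cell cannot be told apart.

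Treatments differed in class I genes on the jejunum arrays of day 55. Over the 3 treatments 4 of the 8 genes passed limma's F test with a fold above 1.5 between some pair, against 10.6% of all 29965 genes: SLA-8 (adjusted p = 1.82e-05), TAP1 (3.19e-04), SLA-3 (0.00172) and SLA-6 (0.0328). In each, T1 was lowest and T3 highest on average. T2 and T1 lay on 1 slide and T3 on another, so that only T2 against T1 is free of a difference between slides.

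SLA-8 had levels of 10.32, 10.08, 10.45 and 10.43 in the T1 pools 9 to 12, of 11.65, 11.46 and 11.27 in the T2 pools 5 to 7, and of 11.79, 11.77, 11.98 and 11.63 in the T3 pools 1 to 4. All pools of T2 and T3 lay above all pools of T1. T2 was higher than T1 by 1.14 ± 0.17, a fold of 2.2 (limma, adjusted p = 6.70e-04), and T3 was 2.77-fold higher than T1 (adjusted p = 6.56e-06). TAP1 had 9.88, 9.9, 9.72 and 10.45 in T1, 12.14, 11.15 and 10.99 in T2, and 12.45, 11.89, 11.85 and 11.67 in T3. Again no T1 pool reached a pool of T2 or T3. The fold of T2 over T1 was 2.72 (1.44 ± 0.3, adjusted p = 0.00945) and that of T3 over T1 was 3.93 (adjusted p = 1.10e-04).

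SLA-3 had 16.1, 16.35, 15.89 and 16.57 in T1, 16.87, 17.12 and 16.88 in T2, and 17.17, 17.1, 17.38 and 17 in T3. The groups of T1 and T2 were 0.73 ± 0.17 apart, a fold of 1.66 (adjusted p = 0.0224), and T3 was 1.92-fold above T1 (adjusted p = 6.79e-04). With 75th percentile scaling neither pair of SLA-3 was called, at 0.47 (limma, adjusted p = 0.153) and at 0.57, below the fold threshold. SLA-6 had 8.61, 8.3, 9.21 and 9.24 in T1, 9.9, 9.9 and 9.29 in T2, and 10.05, 9.7, 10.3 and 10.16 in T3, again without overlap of T1 with the others. Its T3 pools were 2.32-fold higher than T1 (adjusted p = 0.0129), and T2 against T1, 0.86 ± 0.33, was not called (adjusted p = 0.198). Thus 3 of the 8 genes were called higher in T2 than in T1, against 2.83% of all genes, and 4 in T3 than in T1, against 6.83%. Between T3 and T2 limma called 0 of the 8, and 0 had an unadjusted p below 0.05, where 1.62% of all genes were called.

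The other members did not follow. PSMB8, PSMB9, B2M and SLA-7 were not called in any pair of treatments in jejunum at day 55, as can be seen in the plot of the day 55 pools. The probes of a gene differed in size: all 7 SLA-3 probes were higher in T2 than in T1, by 0.11 to 1.41, all 4 SLA-8 probes by 0.33 to 1.53, and both TAP1 probes by 1.18 and 1.7. With the brightest probe of each gene alone, SLA-3 and SLA-8 were called in no pair (T3 against T1 at 0.03 and 0.51), nor was TAP1 in T2 against T1 (1.18, limma, adjusted p = 0.0661), while TAP1 kept its call in T3 against T1. The TAP1 call of T2 against T1 was lost without T2 pool 5 (1.08, adjusted p = 0.0972), and that of SLA-3 without any 1 of T2 pools 5 and 6 and T1 pools 9 and 11 (0.62 to 0.78). Under the names of the authors' table these arrays are those of jejunum day 8. Limma then calls 6 of the comparisons of single treatment pairs in the day 8 tissues and 0 by the F test at day 55. These counts come from different tests and cannot be set against each other. The share of all genes called under those names is not reported here. SLA-6 no longer passed the F test without any 1 of T3 pools 1, 3 and 4 and T1 pools 9 and 10 (1.03 to 1.21).

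**Figure D3:**
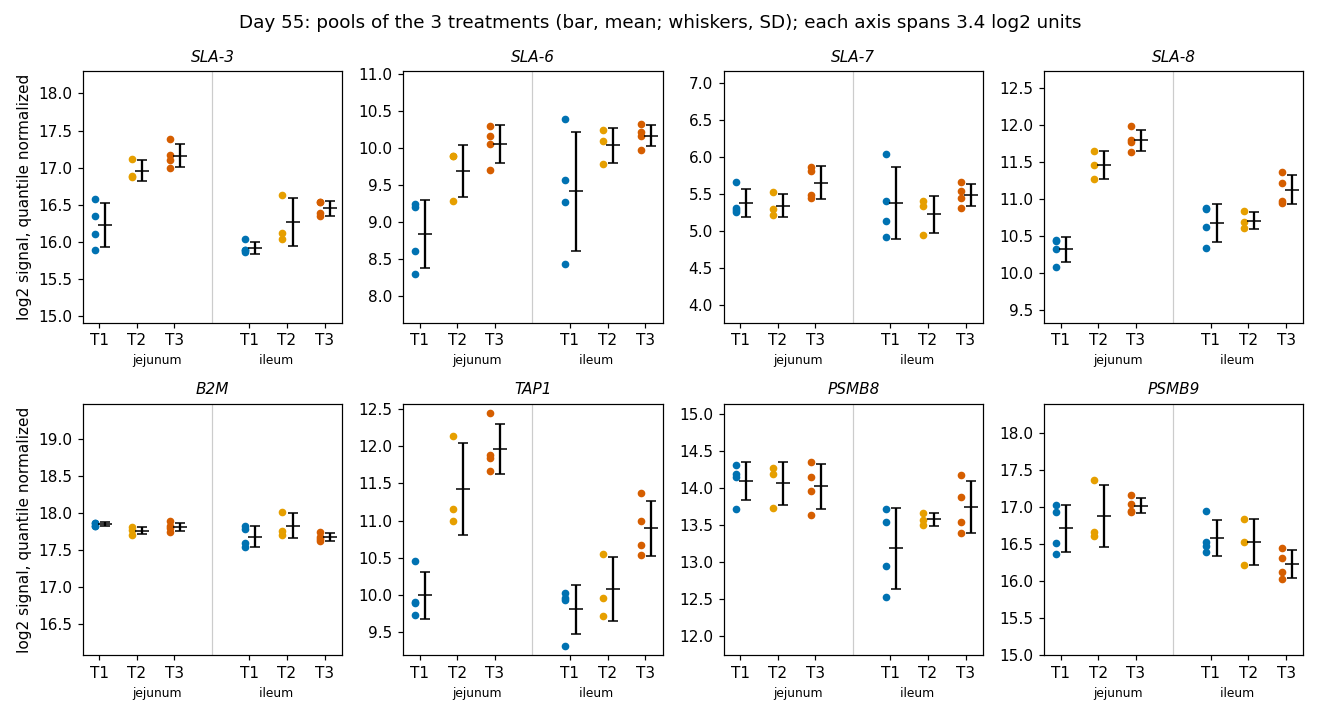
Levels (log2 signal; vertical axis, 3.4 units in every panel) of the 8 genes in the pools of T1, T2 and T3 at day 55 in jejunum and ileum (horizontal axis), with the mean and SD of each group. In jejunum all T2 and T3 pools of SLA-3, SLA-6, SLA-8 and TAP1 lie above all T1 pools, and in ileum all T3 pools of SLA-3, SLA-8 and TAP1 do so.

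In the same jejunum arrays limma called 0 of 10 regulators and 0 of 4 other immunoproteasome and PA28 genes in T2 against T1. Of these 2 and 0 had an unadjusted p below 0.05. In T3 against T1 the regulators IFNGR2 (-0.61 ± 0.15, limma, adjusted p = 0.0123) and JAK2 (-0.6 ± 0.17, adjusted p = 0.0276) were called lower. CD8A exceeded its T1 level in T2 by 1.06 ± 0.2 (limma, adjusted p = 0.00568) and FCGRT did so by 0.91 ± 0.2 (adjusted p = 0.0126). Of 7 T cell markers 0 were called in T2 against T1, with a median of 0.64 and 4 at an unadjusted p below 0.05, and 4 in T3 against T1, among them the kinase LCK (1.03 ± 0.19) and the receptor chain CD3D (0.98 ± 0.24). Their summed signal was 13.42 to 13.93 in T1, 13.76 to 14.19 in T2 and 14.14 to 14.32 in T3. Other markers were also higher in T3 than in T1. XBP1, the only gene of the plasma cell list on the array, was higher by 1.08 ± 0.16 (limma, adjusted p = 2.16e-04). The summed signal of its 6 probes was 16.36 to 16.68 in T1, 16.65 to 17.1 in T2 and 17.02 to 17.29 in T3. In jejunum at day 8 this sum was 16.73 to 17.15, and 1 gene is not a panel of plasma cell markers. Of 8 epithelium markers 2 were higher, ANPEP by 0.83 ± 0.23 and KRT8 by 0.72 ± 0.19. Of 4 smooth muscle markers ACTA2 was higher by 0.8 ± 0.18, while MYLK was lower (-0.92 ± 0.26). In T2 against T1 limma called neither XBP1 nor any epithelium or smooth muscle marker. XBP1, 3 epithelium and 2 smooth muscle markers had an unadjusted p below 0.05 there. The part of these cells in the differences of the members was not tested.

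In ileum at day 55 only TAP1 passed the F test (adjusted p = 0.0249), against 13.6% of all genes. It had 9.31, 10.02, 9.96 and 9.92 in T1, 9.71, 10.55 and 9.95 in T2, and 11, 11.37, 10.67 and 10.53 in T3. The T3 pools lay above all T1 pools, a fold of 2.13 (1.09 ± 0.28, adjusted p = 0.0104), where 8.74% of all genes were called higher in T3 than in T1, and T3 lay on another slide than T1. On the 4 arrays of T3 only 42.4% to 52% of the probes were well above background, against 62.7% to 73.2% on those of T1 and T2, and the part of this in the difference was not tested. With the brightest probe TAP1 was not called (0.87, limma, adjusted p = 0.0594). The F test no longer called it without any 1 of T3 pools 1 and 2 and T1 pool 9 (0.92 to 1.05). In T2 against T1, which shared a slide, the difference was 0.27 (adjusted p = 0.893). Limma called 0 members higher in that pair, 0 had an unadjusted p below 0.05, and 0.0367% of all genes were called higher. SLA-3 was higher in T3 than in T1 by 0.54 (adjusted p = 0.0259), a fold of 1.46 below the threshold.

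Whether the treatment differences were larger in jejunum than in ileum, or at day 55 than at other ages, was tested as a difference of differences, with comparisons chosen after the data had been seen. For T3 against T1 at day 55, SLA-8 differed by -1.01 in ileum minus jejunum (limma, adjusted p = 0.0121), against 6.79% of all genes called. With the brightest probe it was -0.3 and was not called (adjusted p = 0.431). For T2 against T1 limma called 0 members, with 2 at an unadjusted p below 0.05, against 0.24% of all genes, with SLA-8 at -1.11 (adjusted p = 0.0643) and TAP1 at -1.17 (adjusted p = 0.345). SLA-8 was called with a trend of the variance in limma (adjusted p = 0.0245), with a filter on probes well above background (adjusted p = 0.0358) and with 75th percentile scaling (-1.18, adjusted p = 0.0277).

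Between jejunum at day 55 and jejunum at day 8, the difference of T3 against T1 was larger at day 55 for SLA-8, by 1.26 (adjusted p = 0.0405), against 1.2% of all genes, but by 0.24 with its brightest probe alone (limma, adjusted p = 0.875). For T2 against T1 limma called 0, with 4 at an unadjusted p below 0.05, against 0.221% of all genes. TAP1 was at 1.87 (adjusted p = 0.0886) there, and at 2.13 (adjusted p = 0.00486) without the arrays that stand apart. With the replicate block, which pairs pools by sow set, TAP1 was at 1.96 (limma, adjusted p = 0.0345). For day 55 this pairing was assumed from the pool numbers. Leaving out the arrays that stand apart also added calls by limma. SLA-8 for T2 against T1 went from 1.19 (adjusted p = 0.152) to 1.35 (adjusted p = 0.014). For T3 against T1 TAP1 was at 1.58 (adjusted p = 0.082) with all arrays and at 1.58 (adjusted p = 0.016) without these, and SLA-6 at 1.38 (adjusted p = 0.101) and at 1.38 (adjusted p = 0.0453). Between days 55 and 176, SLA-8 (1.3) and SLA-3 (2.45) were called for T2 against T1, against 3% of all genes, and SLA-8 (1.19) and TAP1 (1.69) for T3 against T1, against 3.29%. The SLA-3 value was 1.09 (adjusted p = 0.0818) without the arrays that stand apart, and SLA-3 was also not called with 75th percentile scaling (2.08, adjusted p = 0.0636) or its brightest probe (3.11, adjusted p = 0.0804). With the brightest probe limma called none of the other 3 either, SLA-8 at 0.74 (adjusted p = 0.16) and 0.41 (adjusted p = 0.483) and TAP1 at 1.35 (adjusted p = 0.114).

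At day 8 no member was called in any comparison of treatments. In the tissues 0 of 48 gene and comparison pairs passed limma, 2 had an unadjusted p below 0.05, and the lowest adjusted p was 0.1. Of all genes, 0.0177% were called in jejunum T2 against T1, 0% in T3 against T1 and 0% in T3 against T2, and in ileum 0.365%, 1.49% and 0.0142%. In blood 0 of 24 pairs passed and 0 had an unadjusted p below 0.05, against 0.0312%, 0.0139% and 0% of all genes. The largest difference of a member was 0.93 in the tissues and 0.43 in blood. With 75th percentile scaling SLA-7 was called for T3 against T1 in ileum (0.89, limma, adjusted p = 0.0269), which lay on different slides.

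At day 176 no member passed the F test in jejunum (1.22% of all genes) or ileum (0.0142%), and 1 of 16 had an unadjusted p below 0.05. SLA-3 in jejunum had the largest difference, -1.72 for T2 minus T1 (F test, adjusted p = 0.251), which was set by T2 pool 8. On this array 3 of the 7 SLA-3 probes deviated by -8.41, -9 and -9.48 from the median of their age and another by -2.21, so that its mean was 11.52, where the other 10 arrays were at 14.38 to 16.22. On jejunum day 8 T2 pool 8 and jejunum day 176 T3 pool 4 the same pair of SLA-3 probes was low, with deviations of -5.41 and -8.76 and of -3.2 and -6.62, and the other 5 probes were not, as the plot of single SLA-3 probes shows.

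**Figure D4:**
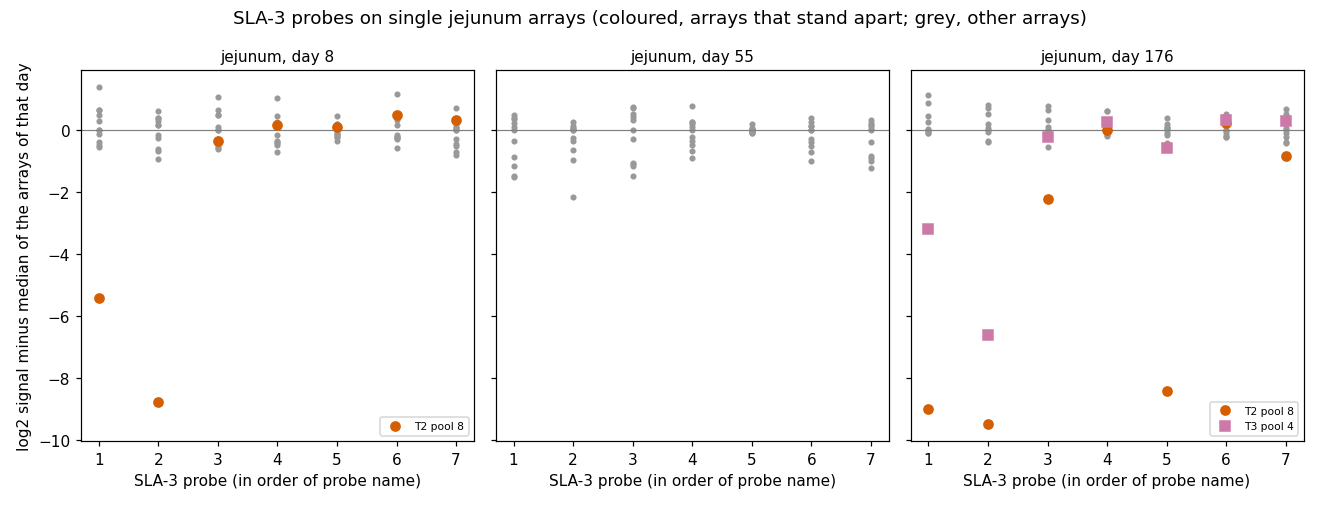
Deviation of each of the 7 SLA-3 probes (horizontal axis) from the median of the jejunum arrays of the same day (log2 units; vertical axis) on every jejunum array at days 8, 55 and 176, coloured for the 3 arrays that stand apart. Probes 1 and 2 are low on all 3 coloured arrays, at -3.2 to -9.48, while probes 4 and 6 stay near 0 on them.

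Ileum and jejunum differed in few of these genes by limma after quantile normalization. At day 8 none of the 8 was called, against 2.4% of all genes, although all 8 were lower in ileum on average and 3 had an unadjusted p below 0.05. The lowest adjusted p by limma was 0.0615, for SLA-8 at -0.43 ± 0.14. At day 55 TAP1 was lower in ileum (-0.87 ± 0.2, limma, adjusted p = 3.10e-04) and the other 7 were not called, against 39.1% of all genes. With 75th percentile scaling 5 of these were called lower in ileum as well, SLA-3 at -1.17, PSMB9 at -1.08, PSMB8 at -1.01, B2M at -0.8 and SLA-8 at -0.6, where the median of all genes was at 0.48. The TAP1 difference of -0.87 is a mean over the 3 treatments. Its group means in ileum and jejunum were close in T1, at 9.8 and 9.99. They were 10.07 and 11.43 in T2, and 10.89 and 11.96 in T3. At day 176 SLA-6 was 2.1-fold higher in ileum, by 1.07 ± 0.18 (adjusted p = 4.33e-06), with 9.3 to 10.15 in ileum and 7.92 to 9.48 in jejunum, and the other 7 were not called, against 28.1%. With 75th percentile scaling SLA-3 was called there too (0.7, limma, adjusted p = 0.0173).

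The difference between the tissues changed with age for 2 of the 8 genes between days 8 and 176, a share of the members near the 23.5% of all genes called. That of SLA-6 was larger at day 176 by 1.4 (limma, adjusted p = 3.47e-05) and that of SLA-8 by 0.72 (adjusted p = 0.00566), while that of SLA-7 was at -0.24 (adjusted p = 0.376). Between days 55 and 8 only SLA-6 was called, by 0.67 (adjusted p = 0.0333), against 38.6% of all genes, and it was at 0.54 (adjusted p = 0.0764) without the arrays that stand apart, where TAP1, at -0.36 with all arrays (adjusted p = 0.334), was called (-0.6, adjusted p = 0.0438). Under the names of the authors' table the differences of day 55 are -2.38 for PSMB9, -2.11 for PSMB8, -1.81 for TAP1 and -0.96 for SLA-8, all called, while those of day 176 concern the same arrays. Markers moved between the tissues too: CD79A of B cells was higher in ileum by 3.91 at day 55 and by 4.79 at day 176, and all 8 epithelium markers were lower in ileum at day 55. Their part in the results was not tested.

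**Figure D5:**
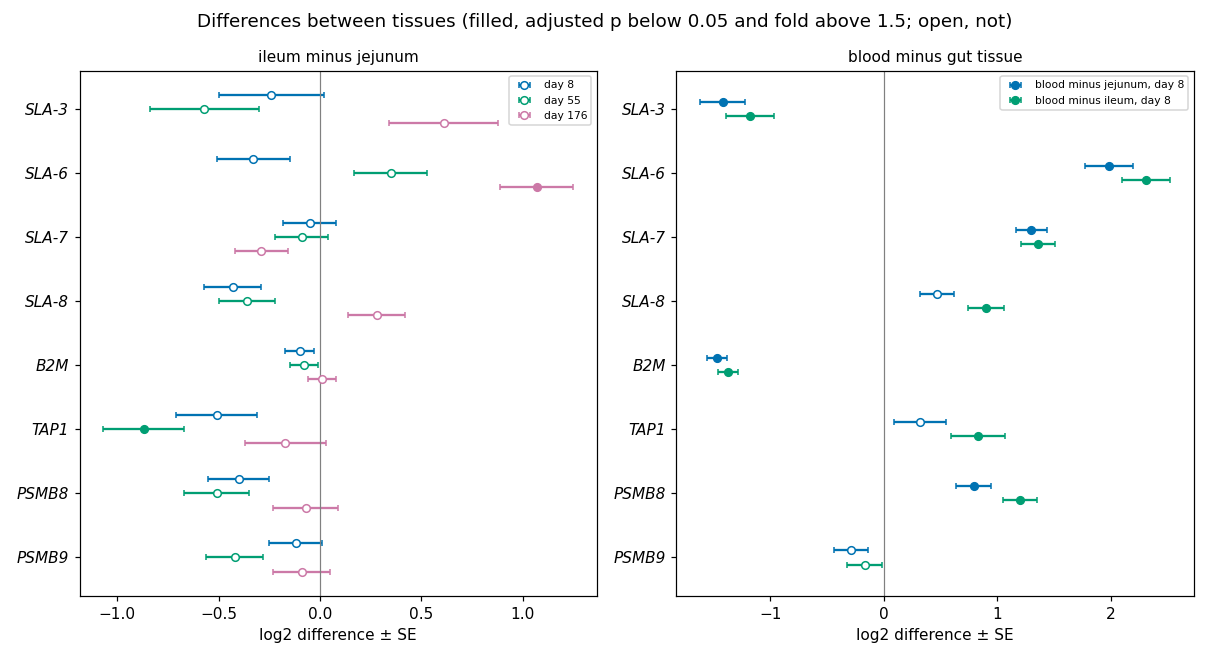
Differences between tissues (log2, with SE; horizontal axis) for the 8 genes (vertical axis), as ileum minus jejunum at 3 ages and as blood minus each gut tissue at day 8, filled where the gene was called. SLA-6 moves from -0.33 at day 8 to 1.07 at day 176 in ileum minus jejunum, and in blood SLA-6 and SLA-7 lie right of 0 and B2M and SLA-3 left of 0.

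Blood at day 8 differed from the gut of the same piglets in both directions. Of the 8 genes 5 were called in blood against jejunum and 7 in blood against ileum, where 75.6% and 74.1% of all genes were called. SLA-6 was 3.95-fold higher than in jejunum (1.98 ± 0.21) and 4.95-fold higher than in ileum (2.31 ± 0.21), with 9.79 to 11.37 in blood, 8.09 to 9.34 in jejunum and 7.87 to 9.03 in ileum, without overlap. SLA-7 was 2.47-fold and 2.57-fold higher, although its probe was well above background on only 8 of the 12 blood arrays. PSMB8 was 1.72-fold and 2.29-fold higher.

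SLA-8 and TAP1 were higher than in ileum, by 0.9 ± 0.16 and 0.83 ± 0.24, and were not called against jejunum. PSMB9 was called in neither, at -0.29 ± 0.15 and -0.17 ± 0.15. SLA-3 was 2.68-fold lower than in jejunum and 2.27-fold lower than in ileum, but under 75th percentile scaling it was not called, at -0.22 (limma, adjusted p = 0.26) and -0.02 (adjusted p = 0.911). B2M was lower, at -1.47 ± 0.09 and -1.37 ± 0.09, with 15.91 to 16.37 in blood and 17.01 or more in the tissues, but its direction turned under 75th percentile scaling, to 0.8 and 0.97, where the median of all genes was at 1.28 and 1.43. The 8 epithelium markers were all lower in blood, FABP2 was not well above background on any blood array, the globin HBE1 was at 15.45 to 16.75, and all 7 T cell markers were higher. Their part in the results was not tested. Under the names of the authors' table PSMB8 is at -1.42 in blood minus jejunum, and SLA-8 (0.52) and TAP1 (0.4) are not called in blood minus ileum.

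The pattern of the members over the 21 group means was described by the mean of all 8. Of 1881 genes with a symbol outside the members and lists, AGPAT4 (Pearson r = 0.947), CCR10 (0.903), LOC396781 (0.896), FUT2 (0.872) and CAMK2G (0.866) were most like it. Between members, values were high for PSMB8 with PSMB9 (0.846), PSMB9 with TAP1 (0.835), SLA-8 with TAP1, which was next in order, PSMB8 with TAP1 (0.798) and B2M with SLA-3 (0.786), while the lowest was that of B2M with SLA-7 (-0.845). These are correlations of group means, which share slides and normalization, and are given as a description.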

How the data were processed

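The authors deposited, per the file headers, 1 scanner file per array written by Agilent Feature Extraction 10.7.3.1, with a background-subtracted and spatially detrended intensity for each spot that was not normalized between arrays, and with the median intensity, the background and 0 or 1 flags. Log2 values that the authors deposited for the whole series, quantile normalized in GeneSpring per the methods, were used only to compare the names of their columns. A column was taken to match an array when their deviations from the mean of their sets correlated above 0.8 over probes with a mean level above 8.

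Control spots were dropped and so was any spot with a non-uniformity or outlier flag. Signals below 1 were set to 1, log2 values of repeated spots were averaged, and quantile normalization was run over all 79 arrays. In each fit a probe needed a value on every array and had to reach the 20th percentile on every array of at least 1 group, and probes of a gene were then averaged. Symbols from RefSeq were available for 5461 probes (12.5%), so that many genes of the lists are unnamed here. A PSMB8 probe had no value on an ileum array of day 176, and fits with that age use the 2 others. For each fit limma 3.58.1 estimated the group means, run in R 4.3.3 (statmod 1.5.0), with Benjamini-Hochberg adjustment within a comparison over all genes tested, 28172 to 32945 per fit. Differences of differences were called at an adjusted p below 0.05 without a fold threshold. The code was tested on simulated data.

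Pools of 1 set of 4 sows at day 8 (pools 1, 5 and 9, and so on) pair across treatments, as the study's supplement lists, and for days 55 and 176 no source used here says so. Once group means were removed, the mean correlation at day 8 between arrays of a sow set was 0.0999 (jejunum), 0.0938 (ileum) and 0.118 (blood), and -0.0325, -0.0306 and -0.0392 between arrays of other sets. The same pool in ileum and jejunum at day 8 had 0.19. The pairing was used as an alternative, the replicate block, with the pairs of days 55 and 176 assumed from the pool numbers.

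Members and lists were chosen with earlier results of these data known. All members are named, and of each list at most 4 called genes with the largest changes in the comparison described. Some genes of the lists are counted but not reported here by name. Markers and the genes that check the tissue labels were named after their values were seen. Alternatives were other normalizations, background correction, filters, the brightest probe, a trend, the block, each array left out and, chosen after the data had been seen, the arrays that stand apart left out and the names of the authors' table.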

Additional observations from a re-analysis of the deposited data

Results flagged for a closer look

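In 5 of 128 groups of 4 pools a single pool lay far from the others of its group, and chance alone gives about 1 in 20, or 6.4 groups. TAP1 was at 9.31 in ileum day 55 T1 pool 9, where the other pools were at 9.92 to 10.02, and at 9.82 in blood day 8 T3 pool 3, where the others were at 9.41 to 9.47. SLA-3 was at 16.03 in ileum day 55 T1 pool 12, against 15.86 to 15.88. SLA-7 was at 5.66 in jejunum day 55 T1 pool 10, against 5.26 to 5.31, and at 5.42 in ileum day 176 T1 pool 10, against 5.22 to 5.25. None of these was on an array that stands apart.

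A further 9 differences between tissues or ages passed the test of the difference itself. The difference of ileum minus jejunum was larger than at day 8 for SLA-6 at day 55 (0.67) and at day 176 (1.4), and for SLA-8 at day 176 (0.72). For SLA-8 the difference of T3 minus T1 at day 55 was smaller in ileum than in jejunum, by -1.01. In jejunum the difference of T3 minus T1 at day 55 was above that of day 8 for SLA-8 (1.26) and above that of day 176 for SLA-8 (1.19) and TAP1 (1.69). The difference of T2 minus T1 was above that of day 176 for SLA-3 (2.45) and SLA-8 (1.3). With the brightest probe of each gene alone limma called none of the 6 differences of treatment, and several of the 9 calls were lost when 1 array was left out. For SLA-8 the 1.26 became 1.13 to 1.31 without any 1 of jejunum day 8 T3 pools 1, 2 and 4 and T1 pools 9 to 12, or day 55 T3 pools 1 to 3 and T1 pools 9 to 11. Its 1.19 became 1.03 to 1.19 without any 1 of day 55 T3 pools 1 and 3 and T1 pool 10, or day 176 T3 pools 2 and 3 and T1 pools 10 and 12, and its 1.3 became 1.05 to 1.3 without any 1 of day 55 T2 pools 5 and 6 and T1 pool 10, or day 176 T2 pool 6 and T1 pools 10 and 12. The TAP1 call was lost without any 1 of day 55 T3 pool 1 and T1 pools 9 to 11, or day 176 T3 pools 2 and 3 and T1 pool 12 (1.49 to 1.66), and that of SLA-3 without any 1 of day 55 T2 pools 5 to 7 and T1 pools 9 and 11, or day 176 T2 pool 8 and T1 pools 10 and 12 (1.09 to 2.5). The SLA-6 call of day 55 was lost without any 1 of 11 arrays (0.56 to 0.64): jejunum day 8 T3 pool 3, T2 pool 8 and T1 pool 9, ileum day 8 T2 pool 7 and T1 pools 10 and 11, ileum day 55 T2 pool 6 and T1 pool 12, and jejunum day 55 T3 pool 2, T2 pool 7 and T1 pool 10.

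All 9 use the labels of the array files, and the ages of a gut tissue lie on different slides, so that age and slide cannot be told apart.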

How the results depend on the processing

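Counts of called pairs were, over arrays left out 1 at a time, 0 to 2 for treatments in the day 8 tissues (0 with all arrays), 0 to 0 in day 8 blood (0), 4 to 6 at day 55 (5), 0 to 0 at day 176 (0), 14 to 15 for age in jejunum (15), 10 to 11 for age in ileum (11), 2 to 3 for ileum against jejunum (2), 12 to 12 for blood against tissues (12) and 2 to 4 for differences of effect, of treatments between tissues at day 8 and of tissues between ages (3). With the replicate block (pairing by sow set or pool) these counts were 0, 0, 5, 0, 15, 11, 2, 12 and 3, and it ended no single call and added 1, that of TAP1 for T2 minus T1 of jejunum, day 55 minus day 8 (1.96, limma, adjusted p = 0.0345). The 75th percentile scaling gave 1 in the day 8 tissues, 8 for ileum against jejunum and 9 differences of effect, normexp gave 3 at day 55 and the brightest probe 2. Shares of all genes called under the alternatives are not reported here, so these counts show nothing particular to the members. Under the 75th percentile scaling B2M turned to 0.8 and 0.97 in blood minus jejunum and ileum, to 0.84 in ileum day 176 minus day 55 and to -0.63 in ileum minus jejunum, day 55 minus day 8, where SLA-7 turned to 0.62, and PSMB9 to 0.11 in ileum day 176 minus day 55. With the brightest probe SLA-8 turned to 0.66 in jejunum day 176 minus day 8.

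Under the names of the authors' table the counts were 6 for treatments in the day 8 tissues, 0 at day 55, 12 for ileum against jejunum and 13 differences of effect, again without the shares of all genes. The count of day 8 is over single treatment pairs and that of day 55 over F tests. Day 55 minus day 8 in jejunum was then -0.51 for PSMB8, -0.42 for PSMB9, -0.57 for SLA-3, -0.36 for SLA-8 and -0.87 for TAP1, and in ileum -0.36, -0.07, -0.25, -0.38 and -0.42 for PSMB8, PSMB9, SLA-6, SLA-8 and TAP1. Day 176 minus day 8 in jejunum was -0.1 for PSMB8, -1.06 for PSMB9 and -1.14 for TAP1, and PSMB9 in ileum day 176 minus day 55 was 1.65. PSMB8 in blood minus jejunum was -1.42. SLA-6 in ileum minus jejunum, day 55 minus day 8, was -0.6, and SLA-8 was at 0.16 for T3 minus T1 in ileum minus jejunum at day 55 and at -1.01 for T3 minus T1 of jejunum, day 55 minus day 8. Slide as a random block could not be fitted, since each group lies on 1 slide. Signal over background limits SLA-7 alone. Where no cause is shown by the construction of an alternative, the cause was not tested.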
